A study of Mus musculus with 6 samples.

Results

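Regions annotated to 10 non-muscle actin, myosin and adhesion genes (Actb, Actg1, Flna, Myh9, Myh10, Vcl, Tln1, Zyx, Actn1 and Actn4) were taken from 4 tables of CUT&Tag signal, by the gene symbol in each table. They numbered 123 of 456310 regions over the 4 tables, and each of the 10 genes had a region in at least 1 table. In CUT&Tag an antibody brings a transposase to its target on chromatin, and reads collect there. The 6 libraries came from primary cardiac fibroblasts of mouse heart and form a T set and an S set of 3 libraries each, with 1 library per group: NC, TGF-b, and TGF-b together with an siRNA. Labels give the siRNA as SiTAZ for the T set and as SiSRF for the S set, but in the text of the study the target in this experiment is Piezo2, so it is called only the siRNA. The antibody is not in the labels. T is taken here to stand for TAZ and S for SRF, by their letters and by the antibodies of the study, and this was not checked. What NC contains, and the strain, age and number of mice behind each culture, are not given in the labels. The series' design text speaks of Tet3 deletion by a Cre virus before TGF-b, but no sample label names Cre or a deletion.

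With 1 library per group no treatment could be tested, and every difference below is a description of 2 libraries. Each table compared a pair of libraries over the peaks called in either, and every ratio is the log2 ratio of the normalized read densities, the later treatment over the earlier. Reads were recovered from the densities and counted over a window of 2 kb around each region, so that neighbouring regions share reads. Read counts are given without scaling to library depth. The interval in brackets beside a ratio is the 95% counting interval, which leaves out the variation between cultures. Beside a median it is a rank interval over the members' regions or genes, which are not replicates. Called regions of the T set numbered 127036 for NC, 53121 for TGF-b and 134584 for TGF-b with the siRNA, with a median of 7 to 10 reads in a called region. Those of the S set numbered 27986, 25891 and 28738, with a median of 10 to 13 reads. As a check of the labelled cell type, 5 of 6 fibroblast markers had a region within 3 kb of a start site in the T set, but so did 5 of 5 cardiomyocyte, 3 of 4 endothelial and 3 of 4 macrophage markers. For the S set these were 1 of 6, 3 of 5, 1 of 4 and 1 of 4. Chromatin association is not expression, so these counts do not identify the cells, and their part in the ratios was not tested.

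The genes encode the contractile and anchoring apparatus of non-muscle cells. Actb and Actg1 encode cytoplasmic actins, which polymerise into filaments. Myh9 and Myh10 encode the heavy chains of non-muscle myosins that pull on those filaments. Flna, Actn1 and Actn4 encode filamin A and non-muscle alpha-actinins, which crosslink filaments, and Tln1, Vcl and Zyx encode talin, vinculin and zyxin of focal adhesions, where filaments are tied to integrins. A myofibroblast differs from a resting fibroblast in its stress fibres and large adhesions. SRF binds the CArG box and drives many actin cytoskeleton genes with its MRTF coactivators, which monomeric actin holds out of the nucleus. TAZ reaches DNA through TEAD factors, which recognise GGAATG.

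Promoter windows of 9 of the 10 genes (all but Actb) were taken from RefSeq (GRCm38.p6), each running from 250 bases before the start to 50 bases after it. The CArG box was searched on both strands as CC, followed by 6 bases that are each A or T, followed by GG, and GGAATG was searched on both strands. A CArG box was present in 2 of 9 windows, those of Vcl and Actg1, against 1.63% of 32851 RefSeq windows. GGAATG was present in 4 of 9, those of Vcl, Flna, Myh10 and Actn4, against 14.7%. The whole windows of Vcl (chr14:20929148-20929447, plus strand) and Actg1 (chr11:120348446-120348745, minus strand) are printed because they hold the CArG boxes, and that of Actn1 (chr12:80260314-80260613, minus strand) because its T set signal showed the widest difference at a start site. They are written 5′ to 3′ along the gene, with the searched motifs in capitals.
Vcl: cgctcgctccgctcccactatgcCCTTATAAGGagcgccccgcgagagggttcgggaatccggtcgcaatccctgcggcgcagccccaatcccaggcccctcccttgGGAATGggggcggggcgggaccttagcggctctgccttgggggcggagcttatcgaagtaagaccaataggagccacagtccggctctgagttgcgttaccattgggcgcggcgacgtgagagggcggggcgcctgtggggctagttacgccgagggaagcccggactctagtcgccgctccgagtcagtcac
Actg1: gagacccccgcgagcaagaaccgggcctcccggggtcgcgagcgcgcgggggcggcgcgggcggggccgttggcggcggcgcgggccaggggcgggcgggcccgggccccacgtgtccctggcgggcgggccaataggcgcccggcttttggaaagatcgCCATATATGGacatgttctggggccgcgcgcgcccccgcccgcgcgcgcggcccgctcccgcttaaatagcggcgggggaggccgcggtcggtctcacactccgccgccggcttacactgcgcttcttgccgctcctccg
Actn1: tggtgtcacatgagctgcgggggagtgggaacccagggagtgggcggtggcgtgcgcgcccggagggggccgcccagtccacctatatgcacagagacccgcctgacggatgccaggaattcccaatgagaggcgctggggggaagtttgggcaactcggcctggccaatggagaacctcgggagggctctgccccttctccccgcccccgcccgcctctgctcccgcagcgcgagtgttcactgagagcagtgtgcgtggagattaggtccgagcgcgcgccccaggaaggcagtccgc

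The CArG box of Vcl occupied positions -227 to -218 from the RefSeq start and its GGAATG positions -143 to -138, so 1 window held both motifs. In Actg1 the CArG box occupied positions -90 to -81. The Actn1 window held neither set of letters. The other 3 windows with GGAATG had it on the opposite strand, read here as CATTCC, and the bases around each site are shown to place them.
Actn4, positions -216 to -211: aatgggaacaCATTCCaccccgaaac
Flna, positions -146 to -141: cgttgtggggCATTCCaacgggaggg
Myh10, positions -7 to -2: caatgagcatCATTCCaggtgggtgg

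A match is only a match of letters. Called regions were placed against the motifs by their distance from the start, corrected for the offset between the RefSeq start and the transcript start of the tables on GRCm38, which was 0 for Vcl. For Vcl the called T set region ran from position -442 to 37 and the S set region from -385 to -89. Both contained the CArG box, whose centre lay 20 bp from the centre of the T set region and 14.5 bp from that of the S set region. The GGAATG of Vcl lay in both regions too, 62 bp and 96.5 bp from their centres. In the other 3 genes GGAATG was not wholly inside a called region, by the same measure and with starts of the 2 annotations that differed by 8 to 170 bp. Its centre was 89.5 bp from that of the region at the 5′ start of Actn4, whose edge left out 1 base of the motif, 110 bp from that of Myh10 and at least 1731 bp from those of Flna. For Actg1, which also holds a CArG box, neither set had a called region within 3 kb of a start site.

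The first comparison asked how TGF-b, a cytokine that turns fibroblasts into myofibroblasts, moved the signal of each set at these genes. At start sites the members' T set signal was mostly higher with TGF-b than in NC. For each gene the region within 3 kb of a transcript start with the highest mean density was taken. Of 9 genes with such a region, Actn1, Vcl and Actb were at least 2-fold higher and 0 were at least 2-fold lower, whereas 20% of 16652 genes were 2-fold higher and 24.2% were 2-fold lower. The regions of Actn1 and Actb entered this table as peaks of the TGF-b library alone, a choice that favours a higher value in it, and that of Vcl was called in both libraries. The median log2 ratio of the 9 genes was 0.64 (-0.08 to 1.24), beside -0.04 over all genes. Over all of their regions, most of which lie in introns, the picture was different. Of 58 regions, 9 were at least 2-fold higher and 22 at least 2-fold lower, against 17.3% and 42.1% of 170890 regions. The median log2 ratio of the 58 was -0.35 (-1.10 to 0.10), beside -0.65 over all regions, and it turned to 0.30 when ratios were centred on that value. The shares of the members' regions, 15.5% and 37.9%, were thus near those of the table as a whole.

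**Figure D1:**
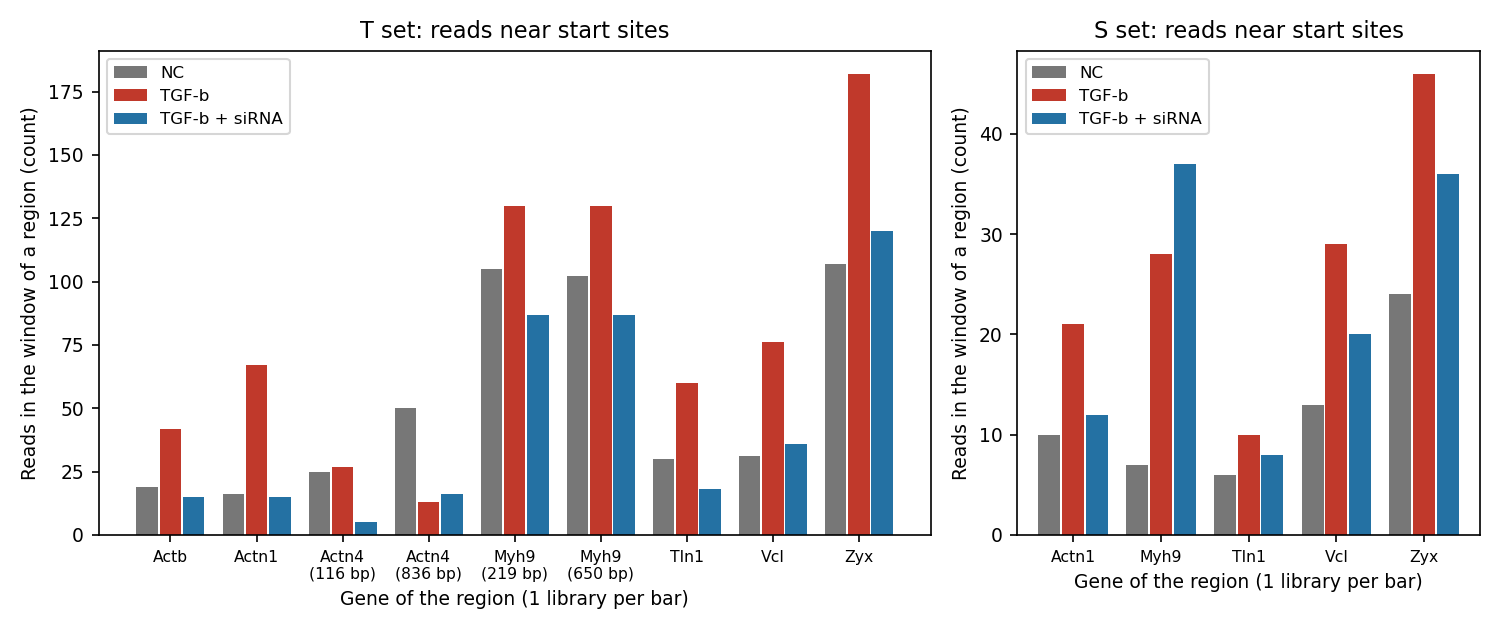
Reads (vertical axis, count in a 2 kb window) at regions within 1 kb of a transcript start that were present in both tables of a set; each bar is 1 library (NC, TGF-b, or TGF-b with siRNA), and genes with more than 1 such region carry the distance to the start. In the T set Actn1 had 16, 67 and 15 reads and Zyx 107, 182 and 120, whereas the S set bars did not exceed 46 reads; the bars are not scaled to library depth.

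Among the actins, Actb had 1 region in the T set, at chr5:142891808-142891958, -191 bp from an internal transcript start that GENCODE M21 places 817 bp downstream of the most 5′ start of the gene. (All region coordinates are those of the tables, taken to be on GRCm39.) It held 19 reads in NC, 42 with TGF-b and 15 with the siRNA added. The log2 ratio was 1.12 (0.39 to 1.94) for TGF-b over NC and -0.95 (-1.85 to -0.17) for siRNA over TGF-b. The TGF-b library stood above both others, and neither interval reached 0. Actg1 had no region in the TGF-b against NC table of either set.

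Of the myosins, Myh9 had one of the densest start sites in the T set, with a mean density above that of 99.6% of genes. Its region chr15:77726368-77726820 (-219 bp) held 105, 130 and 87 reads in the NC, TGF-b and siRNA libraries. The log2 ratios were 0.20 (-0.17 to 0.57) and -0.08 (-0.48 to 0.31), and both intervals included 0 as deposited. The second ratio was -0.57 (-0.97 to -0.19) with the authors' rescaling undone and -1.05 when centred on the median of all regions, so it depended on the scaling. With the rescaling undone, reads are compared without scaling to library depth. A second Myh9 region at -650 bp held 102, 130 and 87 reads from an overlapping window. Myh10 had its start-site region at chr11:68582813-68582880 (-61 bp), called in NC alone, with 54 reads in NC and 42 with TGF-b, a log2 ratio of -0.38 (-0.97 to 0.19). The siRNA table had no Myh10 region there.

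Among the crosslinkers the start sites of Actn1 and Actn4 differed. Actn1 had 16 reads in NC, 67 with TGF-b and 15 with the siRNA at chr12:80307097-80307400 (-103 bp from the most 5′ start). The log2 ratio was 2.01 (1.30 to 2.85), a 4.02-fold higher density with TGF-b, and then -1.61 (-2.48 to -0.89), a 3.05-fold lower density with the siRNA. The NC and siRNA libraries held similar numbers of reads at this promoter, unscaled for library depth, and the TGF-b library stood apart. Actn4, by contrast, was not higher. At its most 5′ start (chr7:28661790-28661972, -116 bp) it held 25 reads in NC and 27 with TGF-b (log2 ratio 0.13, -0.64 to 0.91), and 5 with the siRNA (log2 ratio -1.76, -3.30 to -0.64). A region at -836 bp from an internal start (chr7:28619359-28619606), 43119 bp into the gene by GENCODE M21, held 50, 13 and 16 reads, for ratios of -1.84 (-2.78 to -1.05) and 0.75 (-0.27 to 1.80). The 2 starts of Actn4 thus had different orders of libraries: at the 5′ start the siRNA library was lowest, and at the internal start NC was highest. Under the rule used for all genes, Actn4 was represented by first-intron regions near a further internal start. For TGF-b over NC this was chr7:28652137-28652217, with 32 and 36 reads in NC and TGF-b (log2 ratio 0.17, -0.51 to 0.85). For siRNA over TGF-b it was chr7:28651612-28651729, with 37 and 9 reads in TGF-b and siRNA (log2 ratio -1.46, -2.60 to -0.54). Flna was represented by first-intron regions that were not the same in both tables. The NC and TGF-b libraries held 26 and 24 reads at chrX:73288181-73288248 (log2 ratio -0.08, -0.88 to 0.71). At chrX:73288507-73288598 the TGF-b and siRNA libraries held 28 and 38 reads (log2 ratio 0.90, 0.22 to 1.61), a region called in the siRNA library alone. With the authors' rescaling undone this ratio was 0.43 (-0.26 to 1.14), and it was -0.07 when centred on the median of all regions, so neither its sign nor its distance from 0 held under each scaling.

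At the densest start-site region of each, Vcl, Tln1 and Zyx had more reads with TGF-b than in NC in the T set. Vcl held 31, 76 and 36 reads in NC, TGF-b and siRNA at chr14:20979024-20979503, the region with the CArG box and GGAATG printed above. Its log2 ratios were 1.24 (0.67 to 1.86) and -0.57 (-1.16 to -0.03). Tln1 held 30, 60 and 18 reads at chr4:43562468-43562699 (-161 bp). The ratios were 0.96 (0.36 to 1.61) and -1.21 (-2.01 to -0.51). A further Tln1 promoter region, at -520 bp from an internal start (chr4:43558939-43559022), held 25 reads in NC and 23 with TGF-b (log2 ratio -0.08, -0.89 to 0.72). At the Vcl region and the first Tln1 region the TGF-b library was above the others. Zyx was the densest start site among the members, above 99.8% of genes, with 107, 182 and 120 reads at chr6:42326401-42326930 (-49 bp). Its log2 ratio was 0.64 (0.30 to 0.99) for TGF-b over NC and -0.10 (-0.43 to 0.23) for siRNA over TGF-b. The raw reads of Zyx were fewer with the siRNA, and the second log2 ratio was -0.60 (-0.93 to -0.27) with the authors' rescaling undone and -1.07 when centred, so whether it differed from 0 depended on the scaling.

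**Figure D2:**
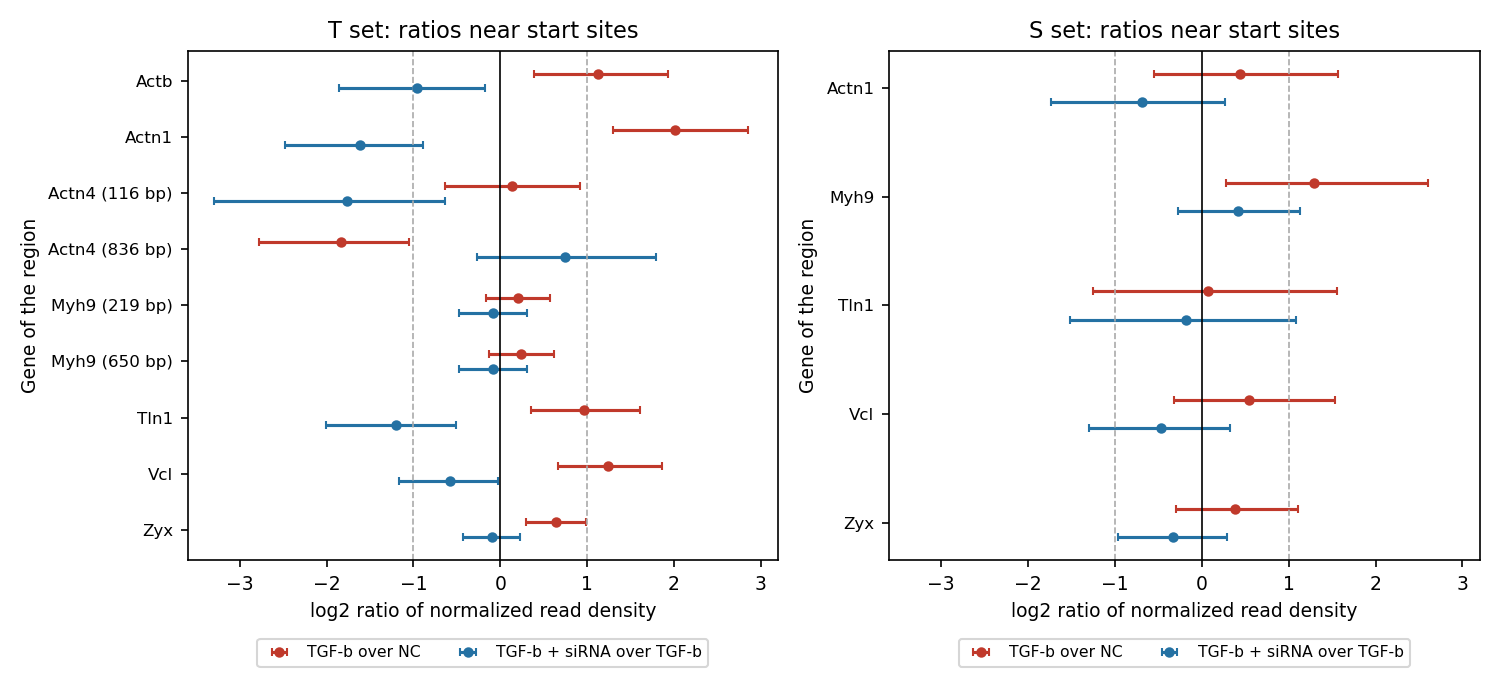
Log2 ratio of normalized read density (horizontal axis) at the same regions, with 95% counting intervals as bars; dashed lines mark 2-fold and the solid line marks 0. In the T set Actn1 lies at 2.01 for TGF-b over NC and at -1.61 for siRNA over TGF-b, while the S set intervals include 0 except that of Myh9 at 1.30.

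The second comparison asked what the siRNA did to the signal in cells given TGF-b. For the T set 8 genes had a start-site region in that table. Tln1, Actn1 and Actn4 were at least 2-fold lower and 0 were at least 2-fold higher, against 19.9% lower and 30.4% higher among 16732 genes. The number lower was 5 of 8 with the authors' rescaling undone and 7 of 8 after subtracting the all-region median, but these scalings also raised the share over all genes, to 30.9% and 43.6%. Of the 3 genes, Tln1 was called in the TGF-b library alone at this region, Actn4 in the siRNA library alone and Actn1 in both. With start sites limited to 1 kb, Actn4 was represented by its internal start, at 0.75, and was no longer among the lower genes. The members' median log2 ratio was -0.76 (-1.61 to 0.90), beside 0.19 over all genes. That bracket spans the lowest to the highest of the 8 genes. Over all 46 regions of the members, 14 were at least 2-fold higher and 13 lower, against 49.7% and 16.2% of 180118 regions, and the median was 0.31 (-0.46 to 0.75) beside 0.97. This median was -0.66 when centred, -0.16 with the authors' rescaling undone and -0.0797 over the regions with 10 or more reads. The TGF-b library is in both comparisons, so that a high value in it alone makes the first ratio positive and the second negative. Of 24 T set regions present in both tables, 6 were at least 2-fold higher with TGF-b and then at least 2-fold lower with the siRNA: 2 of Actn1, 2 of Flna, 1 of Myh10 and 1 of Vcl. This was 25.0% of them, near the 27.3% of all 58623 T set regions with the same coordinates in both tables. Apart from the Actn1 promoter these held no more than 12 reads in any library. The Actn1 region downstream of the gene held 1, 12 and 1 reads, and the Myh10 intron region 2, 11 and 1. The Flna regions held 0, 6 and 0 reads and 1, 8 and 0 reads, and the Vcl exon region 1, 5 and 0.

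Regions away from the start sites carried most of the lower values with TGF-b. The 35 T set regions beyond 3 kb of a start had a median log2 ratio of -1.15, beside -0.77 over all such regions, whereas the 23 within 3 kb had a median of 0.13, beside -0.18. Of the 58 regions, 37 were called in NC alone, 10 in the TGF-b library alone and 11 in both. Among all 170890 regions these numbers were 117769, 43854 and 9267. A region called in 1 library of a pair tends by that choice to be higher in it. The 11 regions called in both had a median of 0.20, beside -0.001 over all regions called in both. Of 34 regions with at least 20 reads in a library, 3 were at least 2-fold higher with TGF-b, the start-site regions of Actb, Actn1 and Vcl, and 12 were at least 2-fold lower. These shares, 8.82% and 35.3%, stood beside 11.5% and 46.1% of all 33065 T set regions of that depth. When centred, 8 were higher and 5 lower, beside 22.7% and 30.3%.

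**Figure D3:**
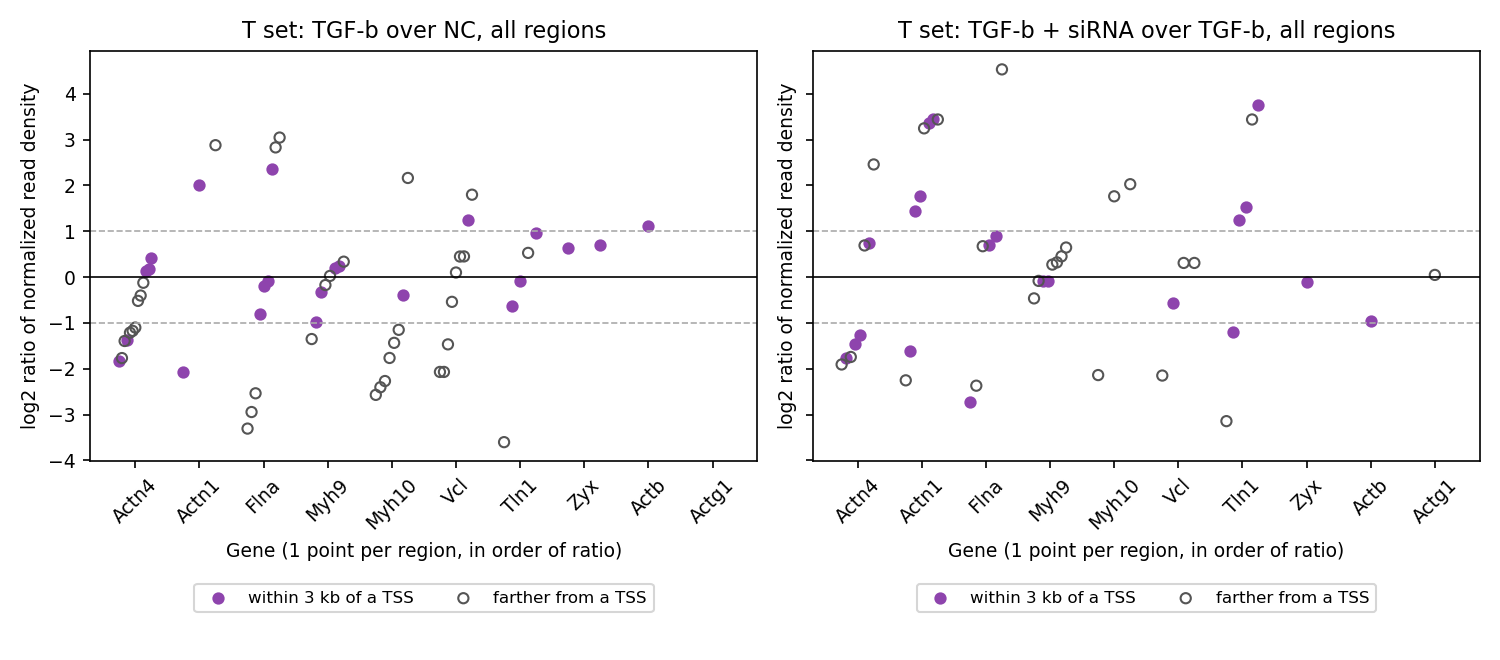
Log2 ratio of normalized read density (vertical axis) of every T set region of the members, by gene (horizontal axis) and within a gene in order of ratio; filled points lie within 3 kb of a transcript start and open points farther away, and dashed lines mark 2-fold. For TGF-b over NC the Actn4 regions run from -1.84 to 0.42 and 6 of 8 Myh10 regions lie past 2-fold lower, while 6 of 8 Actn1 regions lie past 2-fold higher for siRNA over TGF-b.

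The 12 deeper regions that were lower with TGF-b belonged to Actn4, Myh10, Flna, Myh9 and Vcl. Actn4 had 13 regions in that table, more than 93.6% of genes, and 7 were at least 2-fold lower with 0 higher, where 42.1% of all regions were lower and 17.3% higher. These counts are as deposited. When centred, fewer Actn4 regions were 2-fold lower, and the shares over all regions were 27.2% lower and 26.7% higher. Of the 13, 8 were called in NC alone. Besides the internal start, its deeper lower regions lay in the first intron: 51 and 22 reads in NC and TGF-b at chr7:28652382-28652507 (log2 ratio -1.17, -1.92 to -0.49), 24 and 8 at chr7:28629262-28629341 (-1.39, -2.63 to -0.38), and 28 and 12 at chr7:28657704-28657797 (-1.10, -2.12 to -0.21), whose window overlaps that of a neighbour with 28 and 11. When centred these were -0.52, -0.74, -0.45 and, for the neighbour, -0.56, so none passed 2-fold. The internal start was -1.18 when centred. Myh10 had 8 regions, 6 of them at least 2-fold lower and 1 higher, and 7 of the 8 were called in NC alone. The deepest of its intron regions held 41 reads in NC and 11 with TGF-b at chr11:68661183-68661369 (log2 ratio -1.76, -2.80 to -0.91). Its neighbours held 22 and 7 reads at chr11:68641920-68642036 and 20 and 3 at chr11:68625548-68625727. When centred these intron ratios were -1.11, -0.78 and -1.61 in that order. Thus in Myh10 the introns differed by more than the start site, which held 54 and 42 reads.

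Flna had 9 regions, 3 at least 2-fold higher and 3 lower, with 6 called in NC alone and 3 in the TGF-b library alone. The lower ones with the most reads were annotated as 3′ UTR, with 30 and 4 reads at chrX:73280452-73280567 (log2 ratio -2.53, -4.25 to -1.37) and 21 and 1 at chrX:73281735-73281847 (-3.30, -6.79 to -1.69, or -2.30 with the 1 read set to 3). When centred these 3′ UTR ratios were -1.88 and -2.65. The higher Flna regions held at most 1 read in NC and 5 to 8 with TGF-b. Myh9 had an intron region with 48 reads in NC and 18 with TGF-b at chr15:77688138-77688205 (-1.35, -2.17 to -0.63, and -0.70 when centred). The other 7 Myh9 regions stayed within 2-fold, among them a dense intron group at -17052 to -19607 bp from an internal start. There the 3 libraries, in the order NC, TGF-b and siRNA, held 73, 78 and 87 reads, then 69, 92 and 79, and then 52, 47 and 24. Vcl had an intron region with 28 and 9 reads at chr14:21026937-21027086 (-1.47, -2.63 to -0.51, and -0.81 when centred), so within that gene the start site and this intron differed in opposite directions. Its 3′ UTR region at chr14:21082472-21082570 held 20, 27 and 24 reads in the 3 libraries, with both intervals across 0. In Tln1, an exon region held 13 reads in NC and 0 with TGF-b, a linear ratio of at most 0.330 with the 0 set to a floor of 3 reads.

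With the siRNA, 21 regions of the members had at least 20 reads in a library, of which 7 (33.3%) were at least 2-fold lower and 1 (4.76%) higher, against 18.2% and 40.2% of all 23009 T set regions of that depth. When centred, 13 were lower and 0 higher, beside 40.8% and 25.3%. Actn4 supplied 5 of the 7, at the 5′ start, in the first intron and in an exon: besides those given above, 30 and 5 reads in TGF-b and siRNA at chr7:28624863-28625056 (-1.91, -3.44 to -0.80), 32 and 9 at chr7:28651316-28651429 (-1.25, -2.41 to -0.32) and 22 and 4 at chr7:28652382-28652507 (-1.74, -3.47 to -0.53). The first-intron regions among these, with chr7:28651612-28651729 given above, have overlapping windows and share reads. The 7 are thus not separate observations. This count was not repeated with overlapping windows counted once. The region chr7:28652382-28652507 was lower at each step, with 51, 22 and 4 reads in the 3 libraries. This order did not hold in its overlapping neighbours. There chr7:28652137-28652217 held 32 and 36 reads in NC and TGF-b, and chr7:28651316-28651429 held 24, 32 and 9 in the 3 libraries. The region that was higher belonged to Tln1, in its first intron at chr4:43557587-43557665, with 9 and 20 reads (log2 ratio 1.53, 0.51 to 2.72, and 0.56 when centred), while its start-site region was lower. Actn1 differed within the gene in the same way. Its promoter was lower with the siRNA, while 6 of its 8 regions were higher; all 6 were called in the siRNA library alone and held 0 to 4 reads with TGF-b and 4 to 14 with the siRNA. The siRNA library had more called regions than the TGF-b library in the T set as a whole, and 49.7% of all regions were 2-fold higher.

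**Figure D4:**
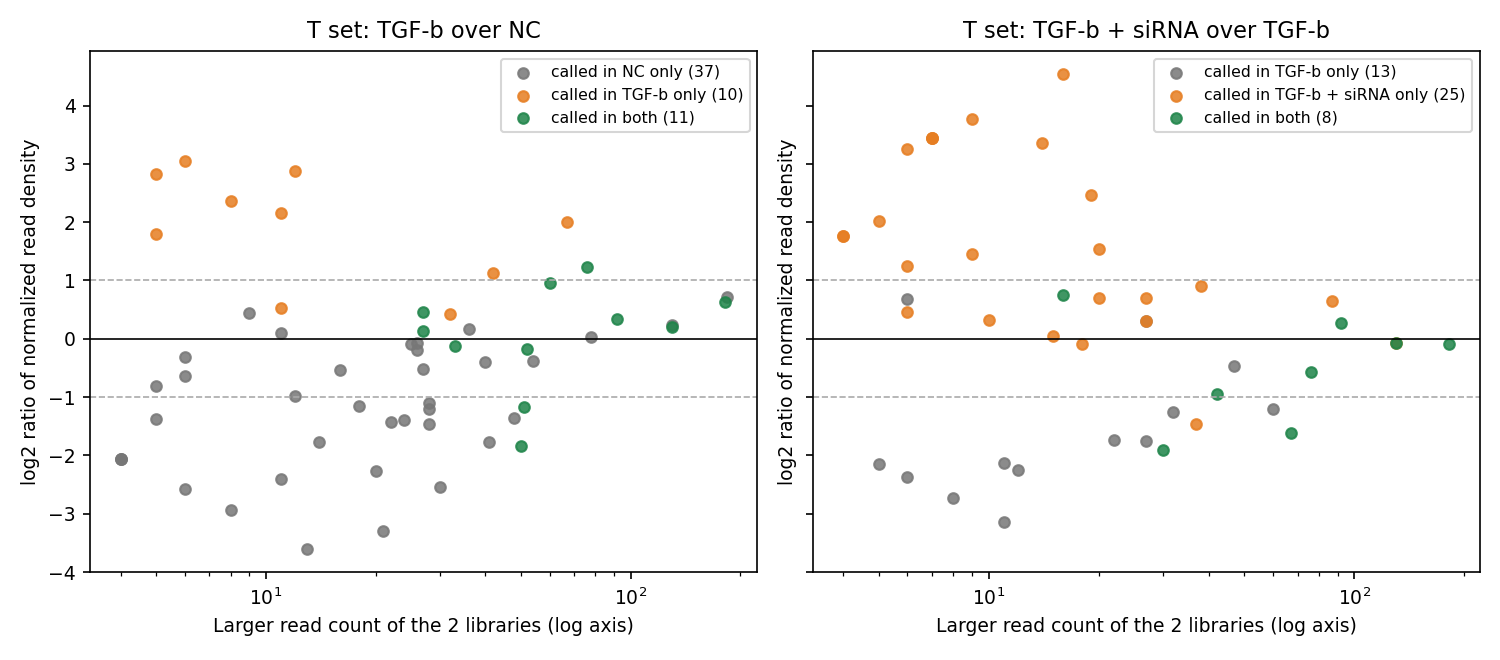
Log2 ratio of normalized read density (vertical axis) of each T set region of the members against the larger read count of the 2 libraries (horizontal log axis), coloured by the library in which the region was called; dashed lines mark 2-fold. Of the 58 regions for TGF-b over NC 37 were called in NC alone, beside 117769 of all 170890. Of the 46 for siRNA over TGF-b 25 were called in the siRNA library alone, beside 126997 of all 180118. The ratios spread widely below 20 reads.

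In the S set the members had 12 distinct regions, against 80 in the T set, and Actb and Flna had none. For TGF-b over NC 5 genes had a start-site region: Myh9, called there in the TGF-b library alone, was at least 2-fold higher, 0 were lower, and the shares over 6762 genes were 22.0% and 15.6%. The median of the 5 was 0.44, beside 0.20 over all genes. Over their 8 regions, 2 were at least 2-fold higher and 0 lower, against 17.4% and 26.7% of 52723 regions, with a median of 0.49 (0.07 to 1.71) beside -0.20. That bracket spans the lowest to the highest of the 8, and the 2 Actn1 regions among them rest on the same reads. For siRNA over TGF-b, 0 of 5 start-site regions passed 2-fold in either direction, against 13.5% higher and 14.9% lower of 8145 genes, and the median was -0.33 beside 0.05. Over 11 regions, 4 were at least 2-fold higher and 1 lower, against 15.1% and 27.8% of 52579, with a median of 0.42 (-0.69 to 1.79) beside -0.21. The 4 higher regions were called in the siRNA library alone, and of the 4 regions called in both 0 passed 2-fold.

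Myh9 held 7, 28 and 37 reads in the NC, TGF-b and siRNA libraries of the S set at chr15:77726368-77726776, the same promoter as in the T set. Its log2 ratios were 1.30 (0.28 to 2.60) and 0.42 (-0.27 to 1.13), so NC was the low library and the siRNA library was not below TGF-b. Vcl held 13, 29 and 20 reads at chr14:20979081-20979377, over its CArG box. Its ratios were 0.55 (-0.32 to 1.53) and -0.47 (-1.30 to 0.32). Zyx held 24, 46 and 36 reads, with ratios of 0.38 (-0.30 to 1.11) and -0.33 (-0.96 to 0.29). These 2 adhesion genes had the most reads with TGF-b, and as deposited all 4 intervals included 0. With the authors' rescaling undone, which had shifted the TGF-b over NC ratios by -0.55 and -0.53, those ratios were 1.10 (0.23 to 2.09) for Vcl and 0.91 (0.23 to 1.64) for Zyx. Undone ratios are not scaled to library depth, and 73.1% of all genes with an S set start-site region were then above 0. Actn1 held 10, 21 and 12 reads, with ratios of 0.44 (-0.55 to 1.57) and -0.69 (-1.74 to 0.27), and both of its S set regions rest on the same reads. Tln1 held 6, 10 and 8 reads at the internal start of its further T set region, chr4:43558538-43558745, with both intervals across 0. For TGF-b over NC, whether the intervals of Vcl, Zyx and Actn1 included 0 thus depended on the scaling, since that of Actn1 was 0.01 to 2.13 with the rescaling undone. For siRNA over TGF-b all 5 start-site intervals of the S set included 0 either way, so no difference was detectable there at this depth.

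Away from the start sites the S set held few reads. A Vcl exon region at chr14:21058886-21059090 had 1, 9 and 0 reads and was the 1 of 7 S set regions in both tables that was 2-fold higher and then 2-fold lower, a pattern of 22.1% of all 26931 such regions. A Myh10 intron region at chr11:68593668-68593909 had 4, 10 and 13 reads. Actg1 had its S set region downstream of the gene, in the siRNA table alone, with 4 reads with TGF-b and 15 with the siRNA (log2 ratio 1.79, 0.50 to 3.54); in the T set its downstream region held 15 and 11 reads (0.05, -1.08 to 1.11).

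The sets were called at the same places in part. Of the 12 S set regions of the members, 8 (66.7%) overlapped a T set region of the members, and 7 of 80 T set regions (8.75%) overlapped an S set region. Over all regions these shares were 17.3% of the S set and 4.70% of the T set. The comparison was not matched for distance to a start or for the number of regions per gene. The 8 include 2 Actn1 regions that rest on the same reads. The shared places were the promoters of Actn1, Myh9, Vcl and Zyx, an intron of Myh10, an exon of Actn4 and the 3′ UTR of Vcl. At the 4 promoters the log2 ratio of TGF-b over NC was above 0 in both sets, with T set values of 2.01, 0.20, 1.24 and 0.64 and S set values of 0.44, 1.30, 0.55 and 0.38 in that order. The promoter with the highest ratio was thus Actn1 in the T set and Myh9 in the S set. These ranks are not resolved by the counts. In the T set the interval of Actn1 (1.30 to 2.85) overlapped that of Vcl (0.67 to 1.86). In the S set that of Myh9 (0.28 to 2.60) overlapped those of the others. At the Myh10 intron the T set held 11 and 1 reads in NC and TGF-b and the S set 4 and 10, with log2 ratios of -2.40 (-5.87 to -0.69) and 0.55 (-0.86 to 2.32).

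A further 43 genes of actin, myosin and adhesion biology were counted for comparison. Of these, 37 had a T set start-site region for TGF-b over NC, with 6 at least 2-fold higher (against 20% of all genes), 3 lower (against 24.2%) and a median of 0.05. For siRNA over TGF-b 34 had one, with 8 higher (against 30.4% of all genes), 8 lower (against 19.9%) and a median of -0.05. Of the S set, 14 and 17 had one, with 3 higher and 2 lower (against 22.0% and 15.6% of all genes), and then 4 higher and 5 lower (against 13.5% and 14.9%). The densest example was Lims1, which encodes an adhesion adaptor that binds integrin-linked kinase. Its T set libraries held 145, 230 and 116 reads, giving ratios of 0.51 (0.22 to 0.82) and -0.48 (-0.81 to -0.17), the second of which was -0.98 with the rescaling undone and -1.45 centred. Its S set libraries held 31, 71 and 69 reads, giving ratios of 0.65 (0.07 to 1.28; 1.17 undone) and -0.06 (-0.53 to 0.42). Diaph1, which encodes a formin that nucleates actin filaments, held 11 reads with TGF-b and 33 with the siRNA in the S set (1.56, 0.68 to 2.61), the highest second ratio of the S set examples. Iqgap1, a scaffold that binds actin, held 43, 74 and 40 reads in the T set, with ratios of 0.73 (0.20 to 1.28) and -0.39 (-0.95 to 0.15). Cald1, which encodes the actin-binding protein caldesmon, held 54, 70 and 73 reads, with a second ratio of 0.55 (0.08 to 1.02). Tpm3, Capzb, Actr3 and Rdx were also among the 4 densest of these genes in at least 1 table. As deposited, their intervals there included 0. The second ratios of Iqgap1 and Cald1 changed in whether their intervals included 0: with the rescaling undone that of Iqgap1 was -0.87 (-1.44 to -0.34) and that of Cald1 0.06 (-0.41 to 0.53), and centred they were -1.36 and -0.42.

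A change of scaling moves all genes at once, so the signs of the start-site ratios are given beside the share over all genes. Of the T set ratios for TGF-b over NC 7 of 9 were above 0 as deposited and with the authors' rescaling undone, beside 48.1% and 45.3% of all genes, and 9 of 9 when centred on the median of all regions, beside 68.1%; there 5 rather than 3 were at least 2-fold higher and the share over all genes was 37.4% rather than 20%. For siRNA over TGF-b 7 of 8 were below 0 as deposited and with the rescaling undone, beside 44.6% and 55.6%, and 8 of 8 when centred, beside 69.0%. In the S set 5 of 5 were above 0 for TGF-b over NC under each of these, beside 57.7% of all genes as deposited, 73.1% undone and 64.0% centred, and 3 of 5 were past 2-fold with the rescaling undone, where the share over all genes was 42.7%, against 1 of 5 and 22.0% as deposited. For siRNA over TGF-b 4 of 5 were below 0 as deposited and undone, beside 49.4% and 49.3%, and 3 of 5 when centred, beside 38.7%.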

How the data were processed

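CUT&Tag was performed on primary mouse cardiac fibroblasts, and 6 libraries, 1 per group, were compared in 4 tables of 2 libraries each. The submitters' processing notes name BWA 0.7.12 and mm10, whereas the study's methods name Bowtie2, GRCm39 and a peak caller given as Masc2. Only 881 of 47510 transcripts shared with GENCODE M21 (GRCm38) had the same start and end in the deposited tables, so their coordinates are not on GRCm38 and were taken to be on GRCm39, which was not checked against an annotation of that build. No sequence was therefore read by these coordinates, and motif positions were compared through the distance from a start. The values used are a signal deposited as normalized read density. The authors added 1 to the reads, scaled them to 0.5 per read (which corresponds to 2 kb) and then shifted them by a linear function of mean log2 density that brings regions shared by a pair to a ratio around 0; a shift common to these shared regions cannot be seen. The tables also hold the authors' fold changes and p-values per region, which were not used. Library totals were not used here.

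Reads were recovered by inverting that function. They came out whole (tolerance 0.1 read) for 99.97% to 99.99% of regions. The step was also run on densities simulated with the same form of function. That checks the calculation but cannot show that the authors used this function. Log2 ratios were taken from the 2 deposited densities within a table. Intervals are Wilson 95% intervals of the later library's share of reads, moved by the authors' linear function. They cover counting error only, and PCR reads are not independent molecules. Those of medians are rank intervals over the members, set at 95%, and reflect the spread between members. With 8 values they run from the lowest to the highest. Neither kind covers the variation between cultures. Differences were counted from 2-fold upwards, and "called" refers to the authors' peaks. No test was possible with 1 library per group. The members and lists were chosen with earlier results of these data known. The text names all 10 members. Per table it gives the region within 3 kb of a start with the highest mean log2 density. Member regions past 2-fold with 20 or more reads are given too. Of the 43 further genes it names the 4 densest per table, with values for only some of them. Distances of a start from the most 5′ start of its gene are from GENCODE M21. Alternatives were the rescaling undone, centring, a minimum of 10 reads, reads of 3 or fewer set to 3, 1.5-fold, start sites within 1 kb or nearest, an overlap of 50%, and, chosen after seeing the data, overlapping windows counted once. Python 3.11.15, pandas 2.3.3, numpy 2.4.6, scipy 1.17.1 and matplotlib 3.10.9 were used.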

Additional observations from a re-analysis of the deposited data

Results flagged for a closer look

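The 2 sets differed in direction at an exon of Actn4 (the T set region chr7:28624863-28625056 and the S set region chr7:28624893-28624969) for siRNA with TGF-b over TGF-b. The T set held 30 reads with TGF-b and 5 with the siRNA, a log2 ratio of -1.91 (-3.44 to -0.80). The S set held 5 and 11 reads, a log2 ratio of 1.11 (-0.21 to 2.71). Each value rests on 1 library per group, the S set interval includes 0, and no test of the difference was made.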

How the results depend on the processing

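Centring on the median of all regions, which was -0.65 for TGF-b over NC and 0.97 for siRNA over TGF-b in the T set, gave 16 higher and 13 lower (26.7% and 27.2% of all regions when centred) and a median of 0.30 for TGF-b over NC, and 9 higher and 20 lower (29.2% and 28.9% of all regions) and a median of -0.66 for siRNA over TGF-b, so both medians turned. A minimum of 10 reads left 5 of 44 higher and 16 lower for TGF-b over NC (14.9% and 45.8% of all such regions) and 4 of 31 higher and 10 lower for siRNA over TGF-b (49.1% and 18%) in the T set, where the latter median became -0.0797, and left 1 of 7 higher (20.5%) and 0 of 9 lower (31.2%) in the respective comparisons of the S set. With the authors' rescaling undone the T set median for siRNA over TGF-b was -0.16, and 6 of 8 S set regions were higher for TGF-b over NC, beside 32.7% of all regions. Setting reads of 3 or fewer to 3 left 1 higher there (11.7%), and a 1.5-fold threshold gave 2 lower for siRNA over TGF-b in the S set (38.7%). Within 1 kb of a start, Actn4 was represented for siRNA over TGF-b in the T set by its internal start, at 0.75, and with the region nearest to a start it was -1.37 for TGF-b over NC, which makes 1 of the 9 start-site genes at least 2-fold lower. The causes were not tested. Counting overlapping windows once, and an overlap of 50%, kept all 12 and the 1 value they apply to within the limits set. No paired analysis was possible because each group has 1 library. In the T set 32.8% of the members' regions for TGF-b over NC and 37.0% for siRNA over TGF-b had 3 or fewer reads in a library, against 49.3% and 57.9% of all regions.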
